A study of Mus musculus with 2 samples.

Results

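The chromatin of 7 genes for transcription factors of the cerebellar granule cell lineage was described: Barhl1, Barhl2, Pax6, Meis1, Meis2, Meis3 and Etv1. They were chosen by name among 21938 coding genes. Each locus was the annotated gene span plus 50 kb on either side, in the GENCODE annotation of the mm10 mouse genome. Not all are homeobox genes in the narrow sense. Barhl1 and Barhl2 encode BarH-like homeodomain factors, the Meis genes encode homeodomain factors of the TALE class, and Pax6 encodes a factor with both a paired domain and a homeodomain. Etv1 belongs to the ETS family and has no homeodomain.

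Accessible DNA was mapped by DNase-seq, in which DNase I cuts the open DNA of isolated nuclei and the cut ends are sequenced. Whole cerebellum came from male B6CASTF1/J mice at 8 to 10 months of age, F1 animals with a B6 and a CAST parent, and no treatment is named. The 2 libraries were biological replicates of 1 group, and each came from a pool of 2 biosamples. For each library the authors deposited peaks, which are regions with many cuts, and footprints, which are short protected stretches inside cut regions. A whole tissue gives an average over its cells, so open chromatin in fewer cells and weaker opening in each cell cannot be told apart.

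Granule cells are the small excitatory neurons that make up most neurons of the cerebellum. Their progenitors come from the rhombic lip, divide in the external granular layer before and after birth, and then migrate inwards. Pax6 acts in these progenitors and in the neurons they form. Barhl1 and Barhl2 are named after the BarH genes of Drosophila, and mouse Barhl1 is used in migrating granule cells. MEIS proteins bind DNA together with PBX proteins and take part in patterning of the hindbrain. Etv1, also called ER81, is a member of the PEA3 group and responds to growth factor and activity signals. DNase-seq reads the state of regulatory DNA and not the level of RNA or protein.

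Each library had 2 peak lists, and the stricter one was used unless the longer one is named. Over the genome there were 61776 stricter peaks and 314116 footprints in replicate 1, and 71141 stricter peaks and 320832 footprints in replicate 2. Of 8 granule cell markers, 8 had a TSS peak in both replicates, that is, a peak overlapping 1 kb on either side of an annotated transcription start site. In both replicates this held for 2 of 5 Purkinje cell markers, 1 of 5 interneuron and unipolar brush cell markers, 2 of 5 astrocyte and Bergmann glia markers and 1 of 5 oligodendrocyte markers. None of 5 microglia markers and none of 4 endothelial markers had one in either replicate. Signal is the authors' value per peak, on a scale they do not state, and it moved in whole steps, of which a median peak held 196 and 152. If a step is 1 cut, counting alone gives an error of 7.14% and 8.11% on such a peak.

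Outside the promoters, the strongest peak found in both replicates and free of exons was taken from each locus, and 200 bases round its centre are shown. Each element is named after the locus it lies in, and which gene it acts on was not tested. Meis2 had no stricter peak in both replicates and so no entry. Sequences are from the plus strand of the GRCm38 (mm10) reference of RefSeq, 5′ to 3′, and were not read from the mice. Capitals mark bases inside footprints of both replicates.
Barhl1: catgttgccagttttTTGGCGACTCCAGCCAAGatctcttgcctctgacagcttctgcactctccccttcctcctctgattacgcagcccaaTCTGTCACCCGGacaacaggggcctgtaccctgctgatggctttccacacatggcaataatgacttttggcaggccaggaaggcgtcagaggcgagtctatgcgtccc
Barhl2: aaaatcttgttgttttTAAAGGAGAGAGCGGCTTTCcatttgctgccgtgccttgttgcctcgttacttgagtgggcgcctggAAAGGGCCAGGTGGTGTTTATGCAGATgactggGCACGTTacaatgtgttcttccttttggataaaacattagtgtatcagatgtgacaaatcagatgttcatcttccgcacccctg
Pax6: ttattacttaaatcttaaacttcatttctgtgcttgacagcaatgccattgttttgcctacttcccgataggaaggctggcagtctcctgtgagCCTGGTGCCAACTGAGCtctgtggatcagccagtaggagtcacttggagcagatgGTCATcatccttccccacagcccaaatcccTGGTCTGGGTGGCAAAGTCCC
Meis1: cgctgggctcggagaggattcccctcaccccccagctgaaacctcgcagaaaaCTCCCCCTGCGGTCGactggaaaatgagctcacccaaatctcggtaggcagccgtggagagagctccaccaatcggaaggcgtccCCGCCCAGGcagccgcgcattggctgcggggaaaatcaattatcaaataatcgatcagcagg
Meis3: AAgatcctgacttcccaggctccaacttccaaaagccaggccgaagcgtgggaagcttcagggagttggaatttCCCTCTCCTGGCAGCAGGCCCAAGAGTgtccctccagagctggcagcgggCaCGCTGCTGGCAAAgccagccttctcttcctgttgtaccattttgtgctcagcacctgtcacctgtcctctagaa
Etv1: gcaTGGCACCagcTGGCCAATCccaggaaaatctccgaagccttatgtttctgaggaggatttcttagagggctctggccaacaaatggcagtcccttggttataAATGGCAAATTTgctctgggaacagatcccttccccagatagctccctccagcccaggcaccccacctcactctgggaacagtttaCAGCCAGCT
The Barhl1 element, chr2:28867501-28867700, lies in an intron of the neighbouring gene Ddx31. The Barhl2 element, chr5:106420971-106421170, is intergenic. The Pax6 element, chr2:105722471-105722670, lies in an intron of Elp4. The Meis1 element, chr11:19020431-19020630, is intergenic and sits upstream of the gene start. The Meis3 element, chr7:16128441-16128640, is intergenic and lies between Kptn and Slc8a2. The Etv1 element, chr12:38833071-38833270, lies in an intron of Etv1 itself.

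These elements differed in strength and in what was protected. Among 25099 distal peaks found in both replicates, mean signal stood at percentile 98.3 for the Meis1 element, 98.1 for that of Etv1, 96.7 for that of Meis3 and 95.7 for that of Pax6. The Barhl2 element stood at 83.4 and the Barhl1 element at 57.2. Shared footprints covered 54 of the 200 bases in Barhl2, 43 in Pax6 and Meis3, 37 in Etv1, 30 in Barhl1 and 24 in Meis1. These counts are over the printed windows, which can reach past the peaks. In Pax6 and in Etv1 the peaks of both replicates overlap over only 100 bases. That stretch held 2 shared footprints in Pax6 and 1 in Etv1, against 3 and 4 in the windows. CpG dinucleotides numbered 14 in the Meis1 element, against 1 in those of Pax6 and Etv1.

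Short motifs were searched on both strands without mismatch. Besides those below they were TAATTA for homeodomains, TGANTCA for AP-1, GTTGCNA for RFX, GCATGCGC for NRF1, AGGGGGC for CTCF, and the MEF2 motif. The Pax6 element held the NFI motif TTGGCA as its reverse complement at bases 100 to 105, wholly inside a shared footprint. NFI factors regulate the maturation of granule neurons, and 24.2% of all shared distal windows of the same length held this motif at any place. The Barhl1 element held the MEIS motif TGACAG as its reverse complement inside a shared footprint, at bases 94 to 99, and 18.5% of windows held it at any place. The Meis3 element held the ZIC motif CAGCAGG inside a shared footprint at bases 86 to 92, as 18.5% of windows did anywhere. In the Meis1 element the SP and KLF motif GGGCGG lay inside a shared footprint as its reverse complement at bases 139 to 144, and 9.09% of distal windows held it at any place. This element lies 1.55 kb upstream of the gene start, and 48.7% of windows at shared peaks near a start held the motif. The Barhl2 element held the bHLH motif CAGATG at 3 places, of which 1 was partly inside a shared footprint, and 29.7% of windows held it at least once. Other elements also held matches outside shared footprints. These were MEIS, NFI, ZIC and RFX in Barhl1, bHLH and MEIS in Pax6, ZIC in Meis1 and MEIS in Meis3. The Etv1 element held none of the 15 motifs, which says only that those letters are not in these 200 bases. Past the printed bases, but inside the replicate 2 peak, a shared footprint at chr12:38833319-38833333 held the NFI motif.

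At the gene starts, a TSS peak was present in 6 of the 7 genes for replicate 1 and in 5 for replicate 2, against 58.4% and 57.2% of all coding genes. In both replicates it was 5 of 7, against 55.9% of coding genes. With 7 genes, these shares are close to the background.

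Meis1 and Pax6 had the highest mean promoter signal of the 7. Meis1 had a signal of 6.15 in replicate 1 and 5.32 in replicate 2 (5.73 ± 0.591, SD, n = 2). Pax6 had 5.97 and 4.54 (5.26 ± 1.02, SD, n = 2). Among coding genes with a TSS peak the median was 4.83 in replicate 1 and 3.38 in replicate 2, so both genes lay above it in each library. For Pax6 this rests on a peak at internal starts, since the signal at its first start, 4.07 and 2.81, was below that median in both. Etv1 had 4.21 and 4.75 (4.48 ± 0.379, SD, n = 2), below that median in replicate 1 and above it in replicate 2. Barhl2 had 3.93 and 2.74 (3.34 ± 0.845, SD, n = 2) and Barhl1 had 1.43 and 1.15 (1.29 ± 0.196, SD, n = 2), below the median in both libraries. Within each library Meis1 was above Pax6 and Etv1, both of those were above Barhl2, and Barhl2 was above Barhl1. Pax6 was above Etv1 in replicate 1 and below it in replicate 2. With a window of 500 bp in place of 1 kb, the mean of Etv1 was 3.22, under that of Barhl2, whose value stayed at 3.34.

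Meis3 and Meis2 were at the low end. Meis3 had a TSS signal of 1.73 in replicate 1 and no TSS peak in replicate 2. The longer, more permissive list of replicate 2 did hold a TSS peak of Meis3, with a signal of 0.917. Meis2 had no TSS peak in either replicate at any of its 16 annotated starts, and none in the longer lists.

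**Figure D1:**
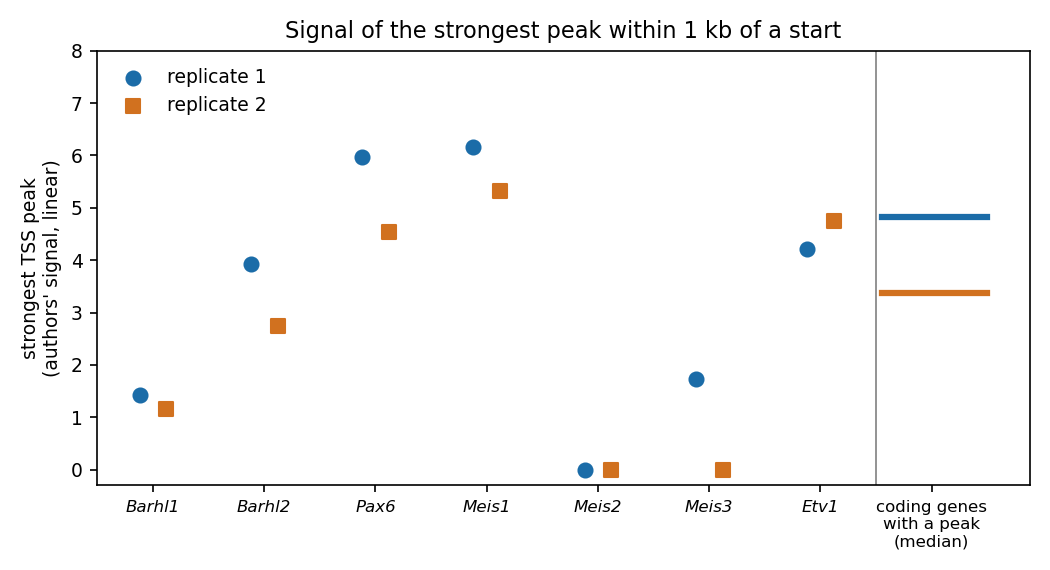
Signal of the strongest peak within 1 kb of any annotated start (authors' signal, linear axis) for each of the 7 genes, with 1 point per replicate; the bars at the right give the median of coding genes where such a peak exists (replicate 1, 4.83, and replicate 2, 3.38). Meis1 and Pax6 lie above the bar of their replicate, Barhl1 and Barhl2 below it, and Meis2 is at 0 in both.

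Pax6, on chromosome 2, had 24 annotated starts spread over its gene span, of which 22 had a peak nearby in both replicates. The strongest peak was not at the first start but 6.55 kb downstream (5.97 and 4.54), where a cluster of internal starts is annotated. The peak at the first start had 4.07 in replicate 1 and 2.81 in replicate 2. The locus held 31 peaks in replicate 1 and 25 in replicate 2 (28.0 ± 4.24, SD, n = 2), of which 18 and 16 lay at its own starts. With so many starts close together, a peak inside Pax6 is readily counted as a TSS peak. Between 18.8 and 21.6 kb from the start, 5 intronic peaks were found in both replicates. The strongest of them, at 18.8 kb, had 3.44 and 2.62 and contained 4 shared footprints, the most of any distal peak of the locus.

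No peak of Pax6 lay farther than 2.27 kb upstream of its start in either replicate, although the locus reached 50 kb in that direction. Downstream, beyond the gene end, the peak 53.7 kb from the start had 4.97 in replicate 1 and 5.29 in replicate 2 (5.13 ± 0.229, SD, n = 2). This is the element inside Elp4 printed above, and introns of Elp4 are known to hold Pax6 enhancers in mouse and human. A second peak in Elp4, 78.2 kb from the Pax6 start, had 0.985 and 1.62 and 3 shared footprints. Elp4 itself, a subunit of the Elongator complex, had a TSS signal of 10.4 and 7.81. Noncoding neighbours differed, as the antisense gene Pax6os1 had TSS signals of 1.03 and 0.784, and Paupar had no TSS peak. The 1.03 came from a peak that was also counted at a start of Pax6. The peak placed at the Pax6os1 start in both replicates, 1.39 kb from the Pax6 start, had 0.971 and 0.784.

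Barhl2, on chromosome 5, had the highest mean peak count of the 7, with 22 peaks in replicate 1 and 38 in replicate 2 (30.0 ± 11.3, SD, n = 2). That rank did not hold in replicate 1, where Pax6 had 31 and Meis1 23. With overlapping peaks merged, the mean was 27 for Barhl2 and 27.5 for Pax6. The Barhl2 gene span is only 5.64 kb long, and 13 and 25 of its peaks were intergenic. The peaks of the locus formed a field from 14.2 kb upstream to 12.3 kb downstream of the start, and a separate group between 37.1 and 40.8 kb. The strongest distal peaks were those at 37.1 kb (2.65 and 2.98) and at 11.4 kb (2.90 and 2.35). A peak 6.14 kb from the start, with a signal of 1.36 and 0.910, contained 6 shared footprints where the peaks of both replicates overlap. By that count it had the most of any distal peak of this locus. Over its whole width, an intronic peak of replicate 1 centred 4.455 kb from the start held 7. All 22 peaks of replicate 1 were found in replicate 2. The 15 peaks seen in replicate 2 alone were weak, between 0.398 and 1.04, and 10 of them lay within 10 kb past the gene end. Only 1 of the 15 was in the longer list of replicate 1.

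Barhl1, its paralog on chromosome 2, had 8 and 4 peaks (6 ± 2.83, SD, n = 2). At its start 3 peaks were found in both replicates, the strongest with 1.43 and 1.15. The distal element in Ddx31, which encodes a helicase, lay 49.1 kb from the start and had 1.42 and 1.62. It contained 2 shared footprints and was the only distal peak of the locus found in both replicates. Ddx31 had a TSS signal of 6.56 in replicate 1 and 3.53 in replicate 2, above that of Barhl1 in both. All 4 peaks seen in replicate 1 alone were present in the longer list of replicate 2.

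**Figure D2:**
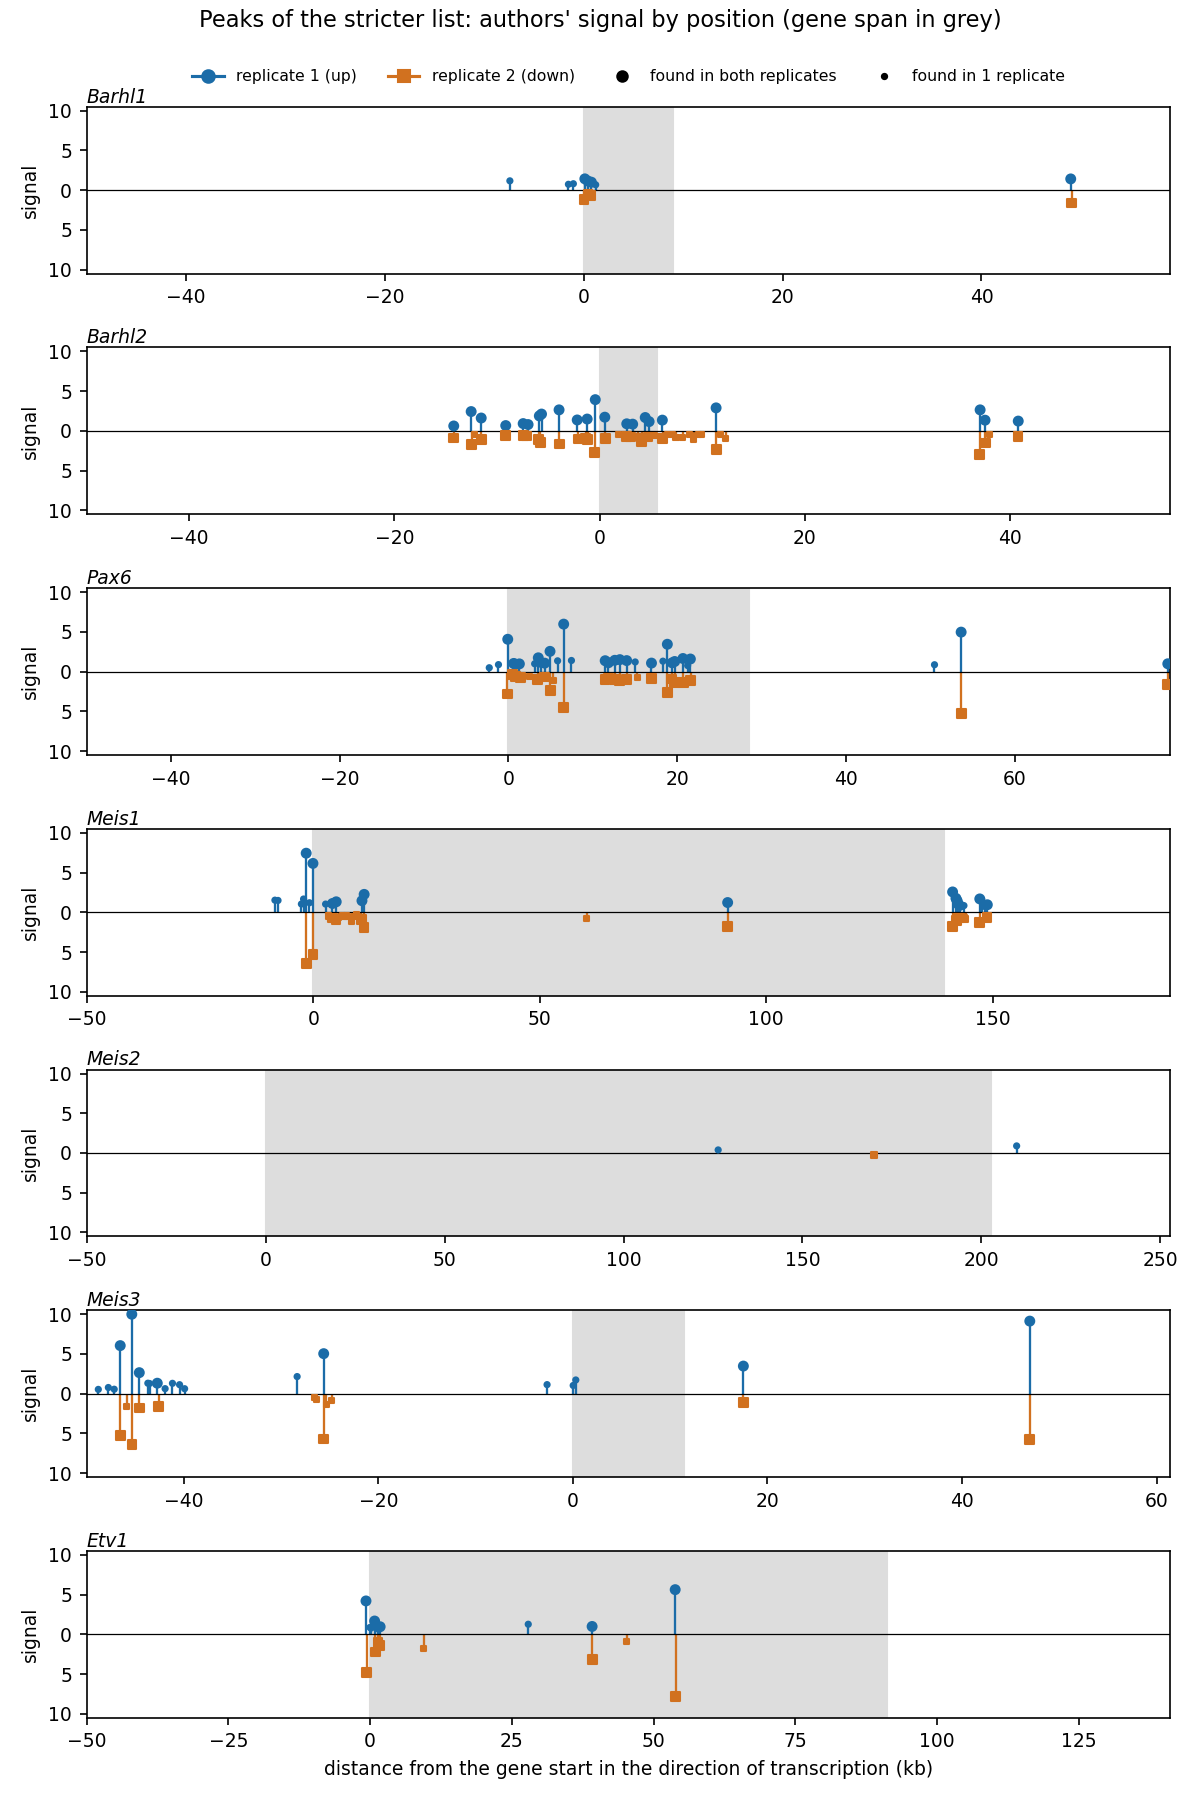
Peaks of the stricter list in each locus, by the distance of their centre from the gene start in the direction of transcription (kb); the height is the authors' signal, upward for replicate 1 and downward for replicate 2, large points were found in both replicates, and the gene span is grey. Barhl2 shows a field of peaks on either side of a short gene. Peaks inside Pax6 reach 21.6 kb from its start in a span of 28.5 kb, and none lies farther than 2.27 kb upstream. The Meis2 locus holds 2 weak peaks in replicate 1 and 1 in replicate 2.

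The Meis genes, whose proteins belong to one family, differed widely among themselves. Meis1, on chromosome 11, had 23 peaks in replicate 1 and 24 in replicate 2 (23.5 ± 0.707, SD, n = 2). Its strongest peak was not at a start but 1.55 kb upstream of it, with 7.44 and 6.45 (6.94 ± 0.700, SD, n = 2). Just past the 3′ end of the gene lay another group, led by an intergenic peak 141 kb from the start, with 2.56 and 1.78 and 6 shared footprints. At 147 kb this group reached the start of the noncoding gene 8430419K02Rik, where a peak had 1.68 and 1.32. The long introns between held few: those at 91.5 kb (1.23 and 1.81) and 11.2 kb (2.26 and 1.95) were found in both replicates.

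Meis2, on chromosome 2, is the longest gene of the set, with a locus of 303 kb. It held 2 peaks in replicate 1, with signals of 0.892 and 0.385, and 1 in replicate 2, with 0.196. None of the 3 overlapped between replicates in the stricter lists. Both peaks of replicate 1 were in the longer list of replicate 2, and the peak of replicate 2 was not in that of replicate 1. Footprints numbered 4 and 2. Bases with a cut-rate false discovery rate (FDR) under 0.001 made up 0.116% and 0.0360% of the locus, against medians of 1.47% and 1.62% over coding gene loci. In Meis1 the same share was 3.01% and 4.33%.

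Meis3, on chromosome 7, had 20 peaks in replicate 1 and 12 in replicate 2 (16.0 ± 5.66, SD, n = 2), but only 2 of those in replicate 1 and none in replicate 2 lay at its own starts. The strongest lay at or near the neighbours. The start of Slc8a2, a sodium and calcium exchanger, had 10.0 in replicate 1 and 6.44 in replicate 2, and that of Dhx34, an RNA helicase, had 9.14 and 5.77. The intergenic element between Kptn and Slc8a2, 46.5 kb upstream of Meis3, had 6.05 and 5.29, and an intronic peak of Slc8a2, 25.6 kb upstream, had 5.04 and 5.70. Each of those contained 4 shared footprints, the most of any distal peaks of the locus. A peak 17.5 kb from the start, past the gene end, had 3.48 and 1.15. With flanks of 25 kb in place of 50 kb, which leave the starts of Slc8a2 and Dhx34 out, the mean percentile of Meis3 in peak density among coding genes was 56.2 in place of 89.6. Of the peaks in the locus, 14 in replicate 1 and 10 in replicate 2 were inside or at the start of another gene.

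Etv1, on chromosome 12, had 9 and 8 peaks (8.50 ± 0.707, SD, n = 2), and none was intergenic. Its strongest promoter peak had 4.21 and 4.75. The intronic element 53.8 kb from the start was stronger, with 5.63 in replicate 1 and 7.78 in replicate 2 (6.70 ± 1.52, SD, n = 2). Another intronic peak, 39.1 kb from the start, had 0.999 and 3.17. Etv1 stood apart between replicates. Over all 45465 peaks found in both, the log2 ratio of replicate 2 to replicate 1 had a median of -0.43, whereas the 6 Etv1 pairs had a median of 0.43, which is 0.86 above it. In the other 5 genes with such pairs, the gene's median minus the overall median was between -0.13 and 0.04. With 1 library per replicate, the difference in Etv1 was not tested.

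**Figure D3:**
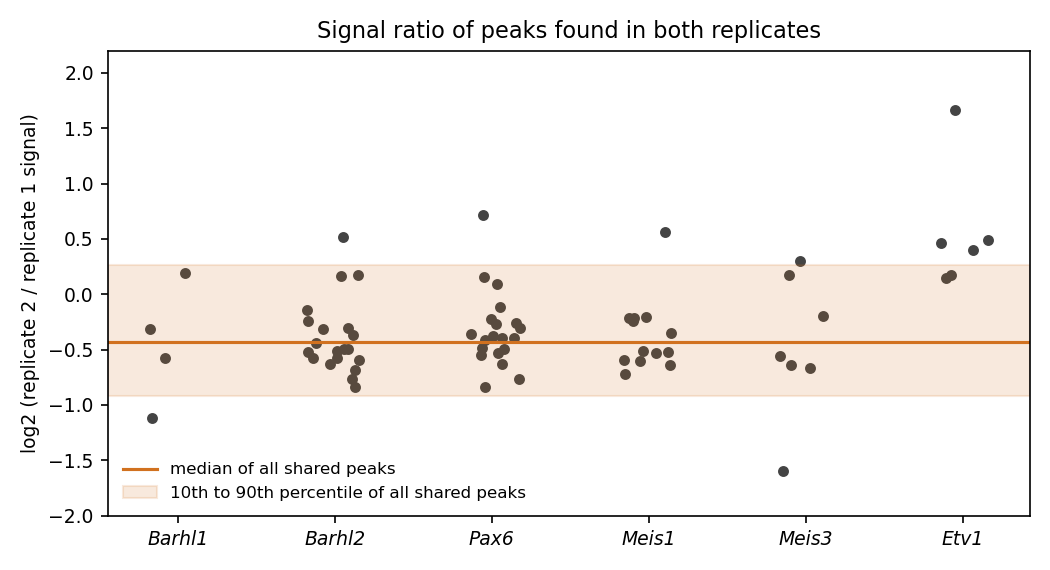
The log2 ratio of signal in replicate 2 to that in replicate 1 for each of the 70 peak pairs found in both replicates, by gene (horizontal scatter within a gene is for visibility). The line is the median of all 45465 pairs, -0.43, and the band spans their 10th to 90th percentile; the 6 Etv1 pairs lie above the line, and Meis2 has none.

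The genes related to the 7 were set beside them. Of the 8 other PAX genes, only Pax5 had a TSS peak, with a signal of 0.857 in replicate 1 and no peak in replicate 2, whereas Pax6 had 5.97 and 4.54. Of the other TALE genes, 7 of 8 had a TSS peak in both replicates. The TSS signal of Pknox1 was 15.4 in replicate 1 and 11.3 in replicate 2, and that of Pbx3 was 8.49 and 4.73. PBX proteins are partners of MEIS on DNA, and Pknox1, also called Prep1, is a close relative of MEIS. Both other PEA3 genes had one, and Etv5 had 15.5 and 12.8, above Etv1. Of Barx1 and Barx2, relatives of the Barhl genes, Barx2 had a weak TSS peak in both replicates (0.371 and 0.196).

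Per length, peaks were counted in every coding gene locus of the same library. Barhl2 had 20.8 and 35.97 peaks per 100 kb (percentiles 95.1 and 99.1), Pax6 had 24.1 and 19.5 (96.3 and 94.7), and Meis3 had 17.95 and 10.8 (93.4 and 85.8). Meis1 had 9.62 and 10.0 (83.6 and 84.2). The median coding gene locus had 3.58 and 4.04. Etv1 (4.71 and 4.19) and Barhl1 (7.34 and 3.67) were nearer to that median, and for Barhl1 the replicates fell on either side of it. Meis2, with 0.661 and 0.330, was below it in both (percentiles 18.1 and 15.3). Density and promoter signal did not rank the genes alike, since Meis3 had a dense locus and a weak or missing TSS peak, and Etv1 a stronger TSS peak in a locus of near-median density.

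**Figure D4:**
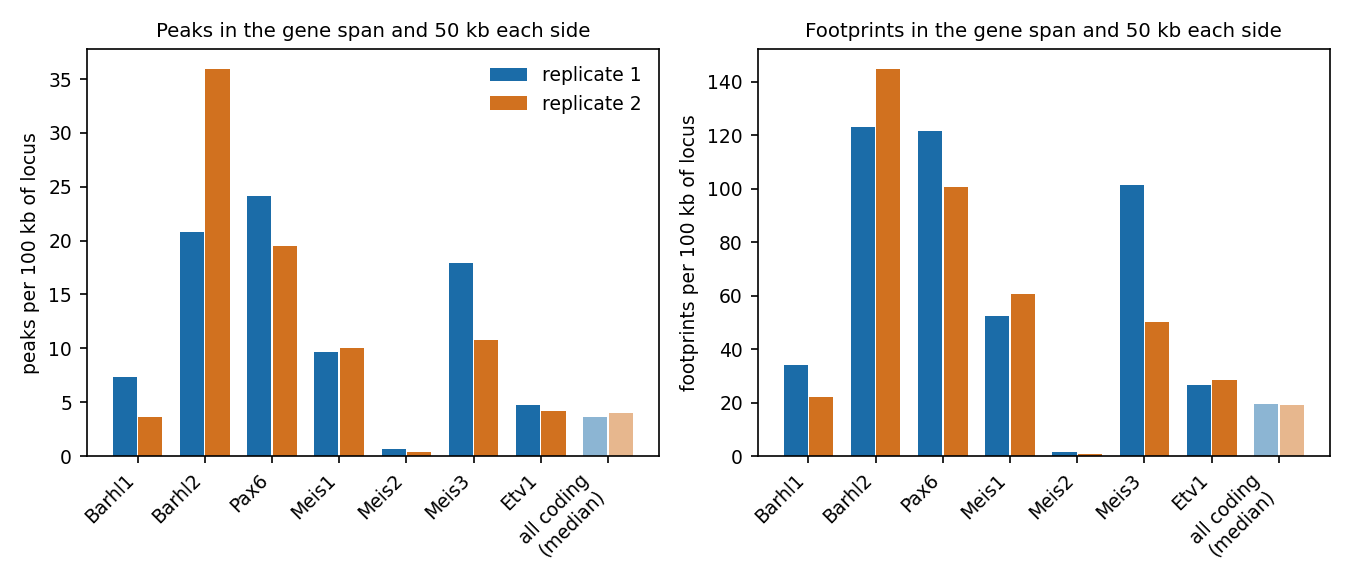
Peaks (left) and footprints (right) per 100 kb of locus for each gene and replicate, with the median of 21938 coding gene loci as pale bars at the right of each panel. Barhl2, Pax6, Meis1, Meis3 and Etv1 stand above the median in both panels and replicates, Meis2 is below it in all, and Barhl1 is above it except for peaks in replicate 2.

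Footprints were most numerous in Barhl2, Pax6 and Meis1. Barhl2 had 130 in replicate 1 and 153 in replicate 2, Pax6 156 and 129, and Meis1 125 and 145. Meis3 had 113 and 56, Etv1 51 and 54, and Barhl1 37 and 24. Over the 7 loci, 40.1% of 616 footprints in replicate 1 were found in replicate 2 (95% Wilson interval 36.3 to 44.0%), against 50.99% of all footprints. Of 563 in replicate 2, 44.2% were found in replicate 1 (40.2 to 48.4%), against 50.6% of all. Among the 6 genes with any shared footprint, the share in replicate 1 ran between 21.6% in Barhl1 and 56.9% in Etv1, and in replicate 2 between 33.3% in Barhl1 and 67.9% in Meis3. Meis3 had 35.4% in replicate 1. Intervals cover counting error only. Peaks were shared at 64.3% of 115 in replicate 1 (55.3 to 72.5%), against 76.0% of all peaks, and at 66.1% of 112 in replicate 2 (56.9 to 74.2%), against 66.1% of all.

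Where the peaks lay also differed by gene. Of the peaks in the 7 loci, 35 in replicate 1 and 30 in replicate 2 were at the gene's own starts, 32 and 32 were intergenic, and 15 and 16 were in its own introns. The start of another gene held 11 and 15, and the inside of another gene 20 and 12.

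**Figure D5:**
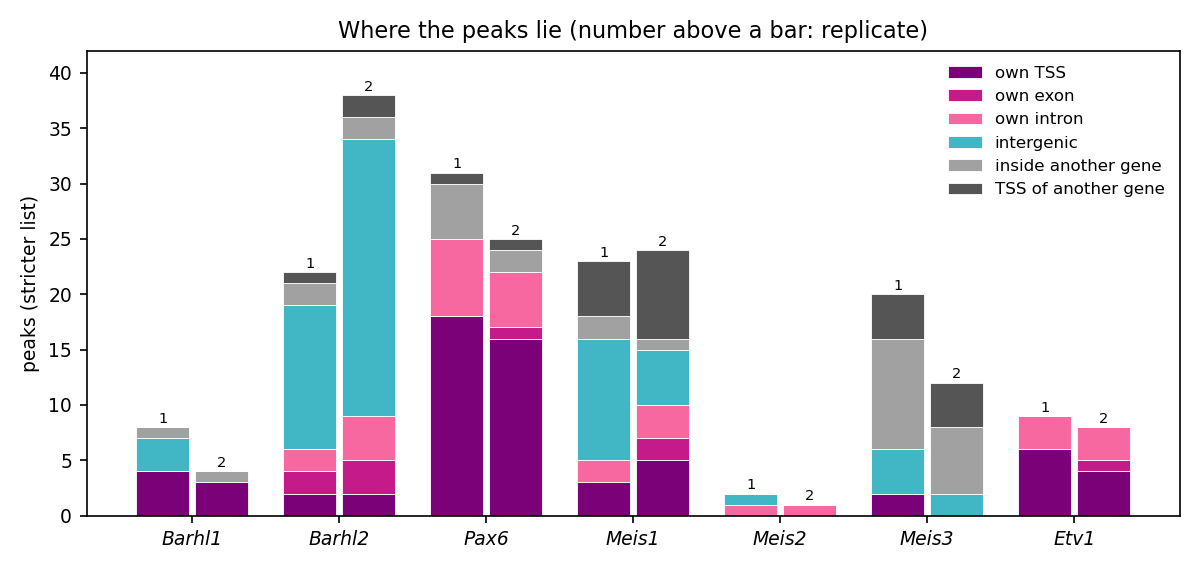
Number of peaks of the stricter list in each locus by annotated place, with replicate 1 in the left bar and replicate 2 in the right bar of each pair. Barhl2 peaks are mostly intergenic, Pax6 peaks mostly at its own starts, and Meis3 peaks mostly in or at the start of other genes.

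Of the 15 motifs, at least 1 was found in 7.79% of footprints of the 7 loci in replicate 1 and 7.10% in replicate 2, against 12.3% and 12.1% of all footprints. The SP and KLF motif GGGCGG was in 2.92% and 2.49%, against 5.71% and 4.79% of all. The NFI motif TTGGCA was in 1.95% (95% Wilson interval 1.12 to 3.37%) and 1.60% (0.843 to 3.01%), against 1.76% and 2.48% of all. Etv1 had this motif in 3 of 51 and 4 of 54 footprints, and Pax6 in 4 of 156 and 3 of 129. The motifs named for BARHL (TAAACG), for the PAX6 paired domain (TTCACGC) and for ETS factors (CCGGAAG) were in none of the 616 and none of the 563 footprints. Over all footprints their shares were 0.0306% and 0.0346% for BARHL, 0.0296% and 0.0281% for PAX6 and 0.280% and 0.249% for ETS. With 5 bp added on either side of each footprint of the 7 loci, BARHL was found in 1 and 3 footprints, PAX6 in 0 and 2, and ETS in 1 and 2. These are 0.162% and 0.533% for BARHL, 0% and 0.355% for PAX6, and 0.162% and 0.355% for ETS. Over all footprints widened alike, the shares were 0.110% and 0.113% for BARHL, 0.0853% and 0.0832% for PAX6, and 0.660% and 0.613% for ETS. Such small counts were not tested.

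The cyclic AMP response element TGACGTCA was found in 2 footprints of the 7 loci, each found in both replicates and each at a promoter. It binds factors such as CREB, which act downstream of calcium and cyclic AMP in neurons. These footprints are shown with 10 bases on either side, and capitals mark the bases protected in both replicates.
Barhl2 promoter: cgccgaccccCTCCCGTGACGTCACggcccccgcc
Pax6 promoter: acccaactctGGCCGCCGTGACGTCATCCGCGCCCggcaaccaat
Etv1 promoter: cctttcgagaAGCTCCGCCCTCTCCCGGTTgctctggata
The Barhl2 footprint, chr5:106458522-106458536, is 0.363 kb upstream of the gene start, and the Pax6 footprint, chr2:105668812-105668836, is 0.076 kb upstream. The shared footprint of Etv1, chr12:38778766-38778785, is 0.604 kb upstream and holds the SP and KLF motif in place of the cyclic AMP response element. Sequences are from the plus strand of GRCm38. Of all footprints, 0.200% in replicate 1 and 0.217% in replicate 2 held TGACGTCA, as did 2.43% of windows of 200 bases at the 20366 peaks near a start found in both replicates. A match is a description of the letters and not evidence of a bound factor.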

How the data were processed

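DNase-seq of whole cerebellum gave 2 libraries of 1 group, numbered as in the labels. Both pools carry the same donor identifier in the labels, which do not say whether an animal entered both, so the SDs may reflect technical spread in part or whole. The genes and motifs were chosen with earlier results of these data known. Peaks and footprints were called by the authors per library on mm10, per the labels and the description deposited with them. For the aligner, the callers, read numbers and the handling of CAST variants, nothing is given in the sources used here. Alleles were not resolved.

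The authors' deposited peak lists give a signal per peak, whose scale is not stated and which moves in whole steps of 0.00714 in replicate 1 and 0.00632 in replicate 2. It was used to rank and describe peaks within a library. The deposited false discovery rate (a q-value) of the cut rate lists intervals under 0.05. In the stricter of 2 lists every peak held a base under 0.001, while 64.1% and 63.9% did in the longer list of 99710 and 114935 peaks. The deposited footprints all carry the value 0.01, read as an FDR threshold.

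A peak or footprint belonged to a locus where its centre lay inside. A TSS peak overlapped 1 kb on either side of any annotated start (GENCODE release 21), the strongest giving the signal, and 0 standing for none. Distal peaks were centred over 1 kb from every start. Sharing required an overlap of 1 bp. Shared footprints of a named peak were counted where the peaks of both replicates overlap. Percentiles are among coding genes on the 19 autosomes and the sex chromosomes. With 1 group and 2 libraries no test was made. Relatives were named from the 4 of highest mean TSS signal, of which 1 is not reported here, and named peaks were, per gene, the strongest TSS peak, the strongest shared distal peak and the distal peak with most shared footprints. Other peaks and relatives were named after their values were seen. Interval functions were tested on simulated data. Python 3.11.15 with numpy 2.4.6 and pandas 2.3.3 was used.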

Additional observations from a re-analysis of the deposited data

How the results depend on the processing

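No paired analysis was possible because the 2 libraries form 1 group. The 7 loci held 114 peaks on average (113.5) and 51 when the stronger peaks of each library alone were kept. Footprints averaged 589.5, and 360.5 inside stricter peaks. The median TSS signal of the 7 genes, 3.34, became 2.23 with a window of 500 bp and 5.96 when peaks in the window were summed, and 2.01 when divided by the library's median shared peak, which changes the unit. The median density percentile, 83.9, was 86.8 for distal peaks, 75.0 with flanks of 25 kb, 76.2 with 100 kb and 81.4 in the longer list. Sharing of peaks, 65.2%, was 48.5% where 50% of each peak had to overlap and 78.8% against the other replicate's longer list. The share of footprints with a motif, 7.45%, was 13.3% among footprints of both replicates and 13.6% with 5 bp added on either side. Over all footprints of the genome the share rose too, from 12.3% in replicate 1 and 12.1% in replicate 2. It was 19.6% and 18.8% among footprints of both replicates, and 19.4% and 19.5% with 5 bp added. The 7 loci were below all footprints in each setting. The number of genes with a TSS peak in both replicates stayed at 5, except 6 in the longer list, where Meis3 was added. Leaving out a replicate gave 112 to 115 peaks, 563 to 616 footprints, 5 to 6 genes with a TSS peak, a median TSS signal of 2.74 to 3.93, a percentile of 83.6 to 84.2 and a motif share of 7.10 to 7.79%. Footprints carry no strength and read numbers are unknown, so what depth limits was not tested.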

Other observations

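In windows of 1000 bp at the gene starts, the observed over expected ratio of CpG was 1.07 for Barhl2, the highest of the 7, and 0.495 for Meis3, the lowest. Meis2, which had no TSS peak, had 0.691, close to the 0.683 of Meis1. Among the neighbours of Meis1, the antisense genes Gm16140 and Gm16141 had TSS signals of 1.46 and 0.936, and of 1.32 and 0.872, in replicates 1 and 2. The noncoding gene Gm26872, upstream of Barhl2, had 2.43 and 1.73.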
